A study of Homo sapiens with 2 samples.

Results

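Hypoxia-inducible genes and the regulators of the hypoxia-inducible factors (HIFs) were examined in a REH line (labelled REH-R), established human B-lineage leukaemia cells with a precursor phenotype, after induction of PAX5. The 32 genes were chosen by name, as HIF subunits, HIF regulators and HIF targets outside glycolysis, and all 32 were found by Entrez number among the 25702 features of the count table. One culture carried a tetracycline-regulated PAX5-IRES-GFP cassette and the control culture a tetracycline-regulated IRES-GFP cassette without PAX5. Doxycycline (1 µg/mL, 3 days) was given to both cultures, and RNA came from the cells that FACS sorting found positive for GFP. Each group was 1 library, so differences have no check by replicates, no test was possible and no p-value is given. Total depth was 11944765 counts for PAX5 and 10997864 counts for the control.

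PAX5 commits lymphoid progenitors to the B lineage. HIFs are dimers of an oxygen-labile alpha subunit and a stable beta subunit. In oxygenated cells, prolyl hydroxylases of the EGLN family mark the alpha subunit, the VHL ubiquitin ligase complex recognises the mark, and the subunit is degraded. When oxygen falls the alpha subunit accumulates and binds hypoxia response elements near genes for pH control, mitophagy, collagen modification and growth restraint. This control acts mainly on the stability of the alpha protein, which transcript counts do not measure.

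The hypoxia response element has the core ACGTG or GCGTG, and promoters of 6 HIF targets are shown. ADM, P4HA1 and BNIP3 were among the members higher in the PAX5 library, whereas the ratios of ANKRD37, BHLHE40 and DDIT4 had counting intervals that included 1. Each sequence is the 250 bases before the annotated start, 5′ to 3′ on the strand of the gene, from RefSeq on GRCh38.p14. Capitals mark each ACGTG or GCGTG on either strand (CACGT or CACGC where the core lies on the other strand), and overlapping matches run together.
ADM: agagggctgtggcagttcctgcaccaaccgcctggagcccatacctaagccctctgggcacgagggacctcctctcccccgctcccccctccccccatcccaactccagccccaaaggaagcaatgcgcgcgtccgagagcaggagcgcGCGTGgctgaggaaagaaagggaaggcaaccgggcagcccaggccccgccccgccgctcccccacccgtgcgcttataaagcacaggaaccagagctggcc
P4HA1: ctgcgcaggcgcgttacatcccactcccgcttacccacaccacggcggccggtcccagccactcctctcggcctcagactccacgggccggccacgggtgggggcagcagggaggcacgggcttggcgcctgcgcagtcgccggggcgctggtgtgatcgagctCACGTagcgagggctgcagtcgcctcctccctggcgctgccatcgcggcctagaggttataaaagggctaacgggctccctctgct
BNIP3: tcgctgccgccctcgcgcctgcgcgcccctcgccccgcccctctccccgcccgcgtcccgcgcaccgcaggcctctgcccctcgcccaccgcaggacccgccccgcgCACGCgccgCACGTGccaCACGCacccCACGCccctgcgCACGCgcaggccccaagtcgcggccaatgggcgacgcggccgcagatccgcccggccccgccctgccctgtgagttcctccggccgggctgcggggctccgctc
ANKRD37: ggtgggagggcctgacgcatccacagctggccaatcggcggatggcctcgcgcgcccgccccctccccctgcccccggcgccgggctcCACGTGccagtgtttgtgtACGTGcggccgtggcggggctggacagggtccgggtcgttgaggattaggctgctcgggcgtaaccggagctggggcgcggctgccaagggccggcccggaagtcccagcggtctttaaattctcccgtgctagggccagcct
BHLHE40: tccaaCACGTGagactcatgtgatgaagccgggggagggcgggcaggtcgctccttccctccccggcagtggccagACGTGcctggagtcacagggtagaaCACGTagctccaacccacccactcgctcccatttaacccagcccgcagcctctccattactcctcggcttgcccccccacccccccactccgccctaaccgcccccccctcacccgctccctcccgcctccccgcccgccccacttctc
DDIT4: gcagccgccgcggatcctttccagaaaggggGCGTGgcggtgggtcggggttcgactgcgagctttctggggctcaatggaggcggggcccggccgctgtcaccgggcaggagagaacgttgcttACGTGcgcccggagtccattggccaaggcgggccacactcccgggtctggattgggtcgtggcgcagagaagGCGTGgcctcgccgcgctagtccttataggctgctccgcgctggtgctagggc
The intervals are chr11:10304823-10305072 (plus strand) for ADM, chr10:73096867-73097116 (minus strand) for P4HA1 and chr10:131981924-131982173 (minus strand) for BNIP3. They are chr4:185396591-185396840 (plus strand) for ANKRD37, chr3:4979187-4979436 (plus strand) for BHLHE40 and chr10:72273674-72273923 (plus strand) for DDIT4. BNIP3 held 6 cores, BHLHE40 held 4, ANKRD37 and DDIT4 held 3 each, and ADM and P4HA1 held 1 each. The CACGTG E-box, which contains the core ACGTG on both strands, occurred in the BNIP3, ANKRD37 and BHLHE40 sequences. Its core was counted on each strand, so these sequences have fewer marked stretches than cores. These 6 were picked with their ratios known and leave out EGLN2, the only member with an interval below 0 on the log2 scale. A link between cores and ratios was not tested.

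A promoter was found for 26 members, and none for ARNT2, VHL, BNIP3L, LOXL2, NDRG1 and JMJD6. Of the 26, 21 (80.8%) held ACGTG or GCGTG on either strand in the 250 bases before at least 1 annotated start. The same was true of 47.4% of all 27305 genes with a promoter and of 65.0% of the 10348 that also had at least 10 counts here. ACGTG alone was found in 13 of the 26, against 21.7% of all genes and 28.9% of those with at least 10 counts. GCGTG was found in 14 (53.8%), against 36.2% and 53.5%, so its share was close to that of the counted genes. The E-box CACGTG was found in 6 (23.1%), against 7.73% and 11.1%. Genes with several annotated starts had more sequence to match. Over all 10348 counted genes, the median log2 ratio of PAX5 over control was -0.01 both with and without a core. Among the 20 members with a promoter and at least 10 counts, it was 0.21 with a core (17 members) and 0.16 without (3 members). For ACGTG it was 0.11 with and 0.29 without, and for GCGTG 0.29 with and 0.11 without.

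Counts were scaled between libraries by the trimmed mean of M values and levels are given as RPKM, reads per kilobase of gene length and per 1e+06 scaled reads. Ratios are PAX5 over control, each with its exact 95% interval, which covers counting error only. In the RNA of a cell population, fewer cells with a transcript and less transcript per cell cannot be told apart. PAX5 itself (Entrez 5079) had 8319 counts with the PAX5 cassette and 2660 without it, 191.7 and 65.96 RPKM, so the control cells also contained PAX5 transcript. B-precursor markers were present in both libraries, with all 11 above 10 counts in sum. Of the markers of other cell types, CD3D, CD3G, CD2, CD8A, HBA1, HBB and COL3A1 had 0 counts in both libraries. TRAC had 13 and 11 counts (log2 ratio 0.14), CD3E 0 and 1, the erythroid marker ALAS2 2 and 0, and the stromal marker COL1A2 0 and 1. The 5 myeloid markers summed to 66.6 CPM (counts per 1e+06 scaled reads) with PAX5 and 132 CPM without it, mostly MPO (554 and 1138 counts). CSF1R had 14 and 41 counts and ITGAM 222 and 278, so that all 3 myeloid markers with at least 10 counts had intervals below 0, while CD14 had 1 and 3 counts and LYZ 1 in each. The 5 stromal markers summed to 49.6 CPM with PAX5 and 59.5 CPM without it, from COL1A1 (115 and 93 counts) and PDGFRB (473 and 563 counts). The part of these marker differences in the ratios was not tested.

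The members spanned most of the expression range of these cells. Of the 32, 20 lay between 3.24 and 221 RPKM in both libraries and 12 lay below 1 RPKM in both. The 12 were EPAS1, HIF3A, ARNT2, EGLN3, STC2, CA9, CA12, PLOD2, LOX, LOXL2, BHLHE41 and RORA. The ratios of the 20 expressed members ran from 0.830-fold (EGLN2) to 1.37-fold (ADM), and all 20 stayed within 1.5-fold. That was usual here, since 97.1% of the 5339 features with at least 1000 counts also lay within 1.5-fold. DDIT4 was the most abundant member per length in both libraries, followed by BNIP3L, BNIP3, HIF1A and ADM.

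**Figure D1:**
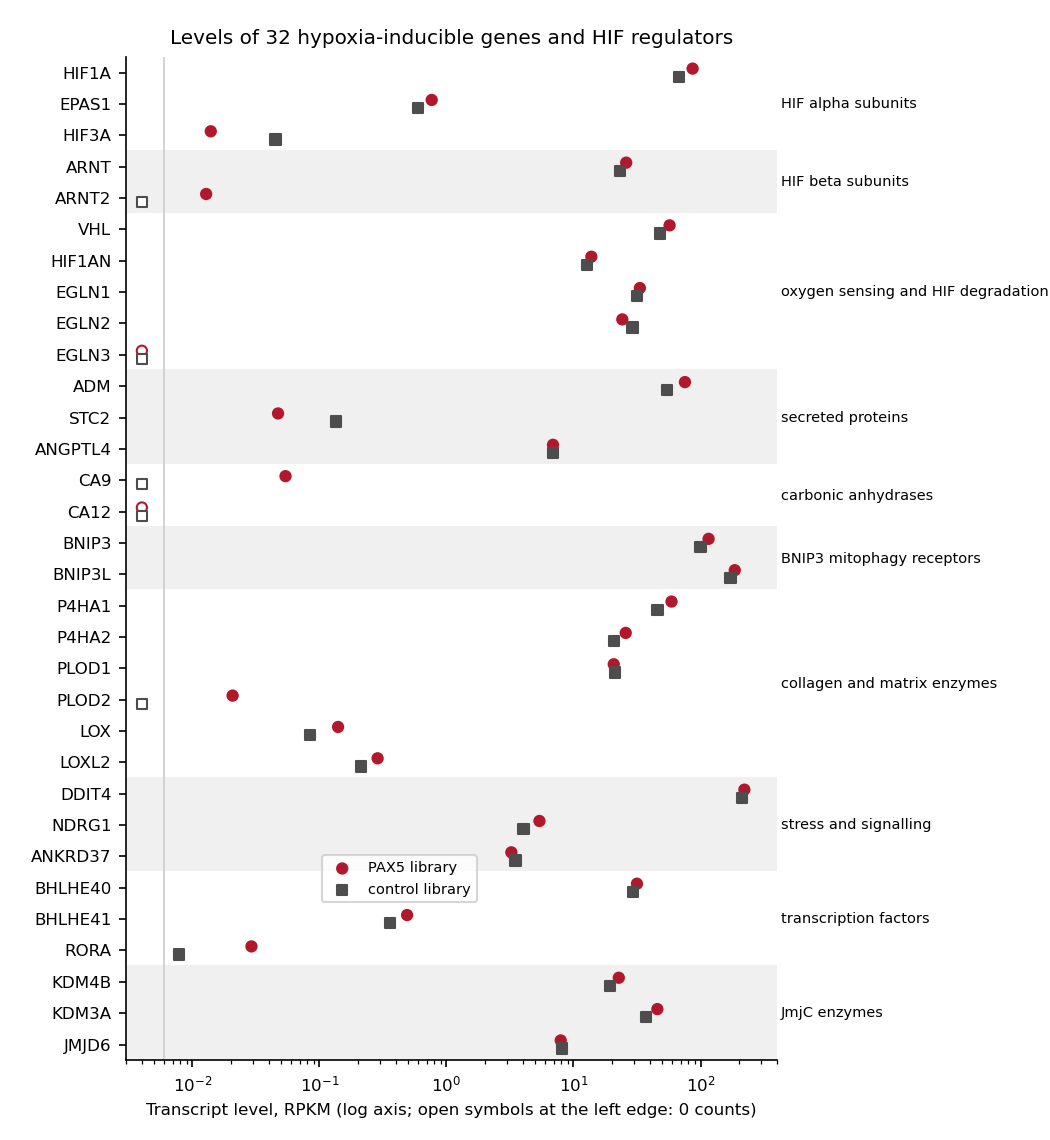
Level of each of the 32 members in RPKM on a log axis, in the PAX5 library (red circles) and the control library (grey squares), grouped by role; 1 library per group. Both symbols of each of the 20 expressed members lie close together, from 3.24 to 221 RPKM, and open symbols at the left edge are 0 counts.

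A member was called when the bound of its interval nearest 0 lay at or beyond 2-fold and its counts summed to at least 10. Of the 25 members with at least 10 counts, 0 were called in either direction. Among all 13532 features with at least 10 counts, 1.34% were called higher in the PAX5 library and 0.0517% lower. Below that size, 11 of 25 members had intervals above 0 on the log2 scale, against 18.7% of all features. One, EGLN2, had an interval below 0, against 16.8% of all features. The 11 were HIF1A, ARNT, VHL, ADM, BNIP3, BNIP3L, P4HA1, P4HA2, NDRG1, KDM4B and KDM3A. The other 13 had intervals that included 0. The median log2 ratio of the 25 was 0.21 and that of all 13532 features was -0.01. The members were chosen with earlier results of these data known, so these contrasts with all features are a description.

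Abundant genes have narrow intervals, so the members with at least 1000 counts were also set beside features of that depth. Of 17 such members 10 had intervals above 0, against 28.7% of 5339 features, and 1 had an interval below 0, against 25.0%. Their median log2 ratio was 0.16, beside 0.01 for the 5339. Together the 32 members held 3205 CPM with PAX5 and 2839 CPM without it.

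**Figure D2:**
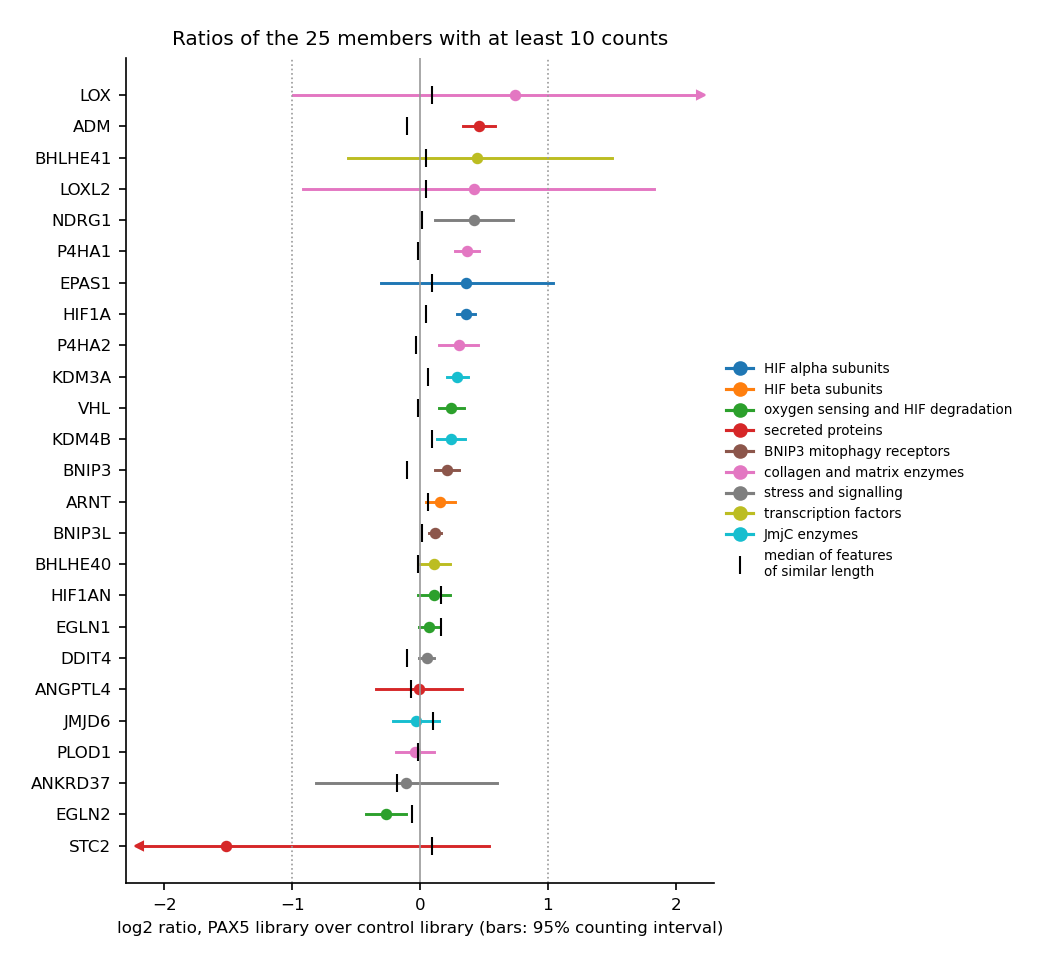
Log2 ratio of the PAX5 library over the control library for the 25 members with at least 10 counts, coloured by role, with exact 95% counting intervals (arrowheads: interval runs beyond the axis; dotted lines: 2-fold). Black ticks are the median of features of similar length; 11 intervals lie above 0, and EGLN2 alone lies below 0.

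HIF1A, the broadly expressed oxygen-labile alpha subunit (Entrez 3091), had 4181 counts in the PAX5 library against 3025 in the control. Its level was 86.6 RPKM against 67.5, a ratio of 1.28-fold (1.23 to 1.35), log2 0.36 (0.29 to 0.43). HIF1A was the main alpha transcript in both libraries. EPAS1, which encodes HIF-2 alpha (Entrez 2034), had 47 and 34 counts, 0.765 and 0.596 RPKM, and an interval that included 0 (log2 0.36, -0.31 to 1.04). HIF1A exceeded EPAS1 by 113-fold per length in each library. HIF3A, an alpha subunit with inhibitory forms, had 1 count against 3, too few for a ratio.

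ARNT, the beta subunit that pairs with HIF1A (Entrez 405), had 1491 counts against 1240, or 26.0 RPKM against 23.3. The ratio was 1.12-fold (1.04 to 1.21), smaller than that of HIF1A. The log2 ratio of HIF1A exceeded that of ARNT by 0.20 (0.07 to 0.33), and HIF1A transcript stood at 3.33 times ARNT per length in the PAX5 library and 2.90 times in the control library. ARNT2, the neural paralog of ARNT, had 1 count against 0.

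The oxygen-sensing genes differed in direction. VHL, the substrate receptor of the ligase that degrades HIF alpha (Entrez 7428), had 2014 counts against 1578, or 57.1 RPKM against 48.1, with a log2 ratio of 0.25 (0.15 to 0.34). EGLN1, the main HIF prolyl hydroxylase (Entrez 54583), had 2811 counts against 2490, or 33.3 RPKM against 31.8, and its interval included 0 (log2 0.07, -0.01 to 0.15). EGLN2, a second prolyl hydroxylase (Entrez 112398), had 636 counts against 712, or 24.2 RPKM against 29.2, and was the only member lower beyond counting error, at log2 -0.27 (-0.43 to -0.11). EGLN3, a hydroxylase that is itself a strong hypoxia target in many cells, had 0 counts in both. The floor of 3 counts stood at 0.252 CPM with PAX5 and 0.272 CPM in the control, and EGLN3 transcript near or below it could have been missed. HIF1AN, the asparaginyl hydroxylase that blocks coactivator binding, had 1136 counts against 980, with an interval that included 0 (log2 0.11, -0.02 to 0.23).

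Among the oxygen-sensing genes, VHL and EGLN2 were furthest apart, with log2 ratios that differed by 0.51 (0.33 to 0.70). EGLN1 and EGLN2 differed by 0.34 (0.16 to 0.51). EGLN1 stood at 1.38 times EGLN2 per length in the PAX5 library and 1.09 times in the control library. EGLN1 is a long gene and EGLN2 a shorter one, with 7097 and 2209 deposited bases. When each was set against features of its own length, the difference was 0.12 with an interval that included 0 (-0.06 to 0.29).

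Of the secreted products, ADM, which encodes the vasodilator peptide adrenomedullin (Entrez 133), had the highest ratio among members with at least 100 counts. It had 1299 counts against 878, or 75.4 RPKM against 54.8, a ratio of 1.37-fold and a log2 ratio of 0.46 (0.33 to 0.58). Transcripts for the adrenomedullin receptor were scarce: CALCRL had 25 and 31 counts, and its accessory proteins RAMP1, RAMP2 and RAMP3 had 0 in both libraries. ANGPTL4, a lipoprotein lipase inhibitor (Entrez 51129), had 156 counts against 146 and a log2 ratio of -0.01 (-0.35 to 0.33). STC2, a secreted glycoprotein, had 3 counts against 8, with an interval from -4.07 to 0.54 on the log2 scale.

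The carbonic anhydrases that hypoxia induces in many solid tumours were at or near 0. CA9 had 1 count against 0, and CA12 had 0 in both. Neither library therefore held the transcript of these membrane enzymes above the floor of 3 counts.

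BNIP3 and BNIP3L, receptors that recruit autophagosomes to mitochondria, were both abundant and both higher in the PAX5 library. BNIP3 (Entrez 664) had 2112 counts against 1696, 116 RPKM against 100.1, with a log2 ratio of 0.21 (0.12 to 0.30). BNIP3L (Entrez 665) had 7742 counts against 6647, 186 RPKM against 172, with a log2 ratio of 0.11 (0.07 to 0.16). The pair differed by 0.10, with an interval that included 0 (-0.01 to 0.20). BNIP3 is the shorter gene, and set against features of their own length the pair differed by 0.21 (0.11 to 0.32).

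Among the members, the collagen prolyl hydroxylases were higher, and the lysyl hydroxylase PLOD1 and the sparsely counted LOX and LOXL2 were not distinguishable between libraries. P4HA1, the catalytic subunit of prolyl 4-hydroxylase (Entrez 5033), had 2119 counts against 1527, 59.1 RPKM against 45.8, and a ratio of 1.29-fold (1.21 to 1.38). P4HA2, the alternative catalytic subunit (Entrez 8974), had 829 counts against 625, 25.8 RPKM against 20.9, and a ratio of 1.23-fold (1.11 to 1.37). PLOD1, a lysyl hydroxylase (Entrez 5351), had 741 counts against 707, 20.7 RPKM against 21.3, and a log2 ratio of -0.04 (-0.19 to 0.11). The log2 ratio of P4HA1 exceeded that of PLOD1 by 0.40 (0.23 to 0.58).

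P4HB, the shared beta subunit of prolyl 4-hydroxylase was set beside them. It had 4783 counts against 4566, and both catalytic subunits exceeded it in log2 ratio, P4HA1 by 0.41 (0.29 to 0.52) and P4HA2 by 0.34 (0.18 to 0.50). The members LOX, LOXL2 and PLOD2 were barely expressed. LOX had 9 counts against 5, LOXL2 had 13 against 9, and PLOD2, a lysyl hydroxylase induced by hypoxia in many cells, had 1 against 0.

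Of the stress and signalling targets, DDIT4, an inhibitor of mTORC1 signalling (Entrez 54541), was the most abundant and differed little. It had 4612 counts against 4133, 221 RPKM against 213.5, and a log2 ratio of 0.05 (-0.01 to 0.11). Its paralog DDIT4L was lower, with 318 counts against 598 and a log2 ratio of -1.02 (-1.22 to -0.82), a difference of 1.07 (0.86 to 1.28) between the pair. DDIT4L did not pass the 2-fold rule. NDRG1, a differentiation-related hypoxia target (Entrez 10397), had 223 counts against 155, 5.39 RPKM against 4.03, and a log2 ratio of 0.42 (0.12 to 0.72). NDRG3, a relative of NDRG1, had 1175 counts against 1074 and a log2 ratio of 0.02 (-0.10 to 0.14). ANKRD37, a small ankyrin-repeat target (Entrez 353322), had 36 counts in each library.

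The transcription factor targets had no interval off 0. BHLHE40, a circadian and metabolic repressor (Entrez 8553), had 1140 counts against 983, or 31.6 RPKM against 29.3, and a log2 ratio of 0.11 (-0.02 to 0.23). Its paralog BHLHE41 had 22 counts against 15, so BHLHE40 was 64.5 times as abundant per length in the PAX5 library and 81.6 times in the control library. RORA, an orphan nuclear receptor, had 4 counts against 1, below the minimum of 10.

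Of the JmjC enzymes, which use oxygen as a substrate, both histone demethylases were higher, and JMJD6 could not be told apart between the libraries at this depth. KDM3A, an H3K9 demethylase (Entrez 55818), had 2674 counts against 2028, 45.7 RPKM against 37.3, and a log2 ratio of 0.29 (0.21 to 0.38). KDM4B, which also acts on H3K9 (Entrez 23030), had 1515 counts against 1192, 22.7 RPKM against 19.3, and a log2 ratio of 0.24 (0.13 to 0.35). JMJD6, an oxygenase of splicing factors (Entrez 23210), had 539 counts against 512 and a log2 ratio of -0.03 (-0.21 to 0.15). Within families, KDM3A exceeded KDM3B by 0.14 (0.01 to 0.27) and KDM4B exceeded KDM4A by 0.30 (0.14 to 0.46). KDM3A lay below JMJD1C, the other member of its family, by a log2 difference of -0.18 (-0.29 to -0.06), which was -0.01 (-0.13 to 0.11) when both were set against features of their own length. KDM4B and KDM4C did not differ beyond counting error, with a difference of -0.01 (-0.18 to 0.16).

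**Figure D3:**
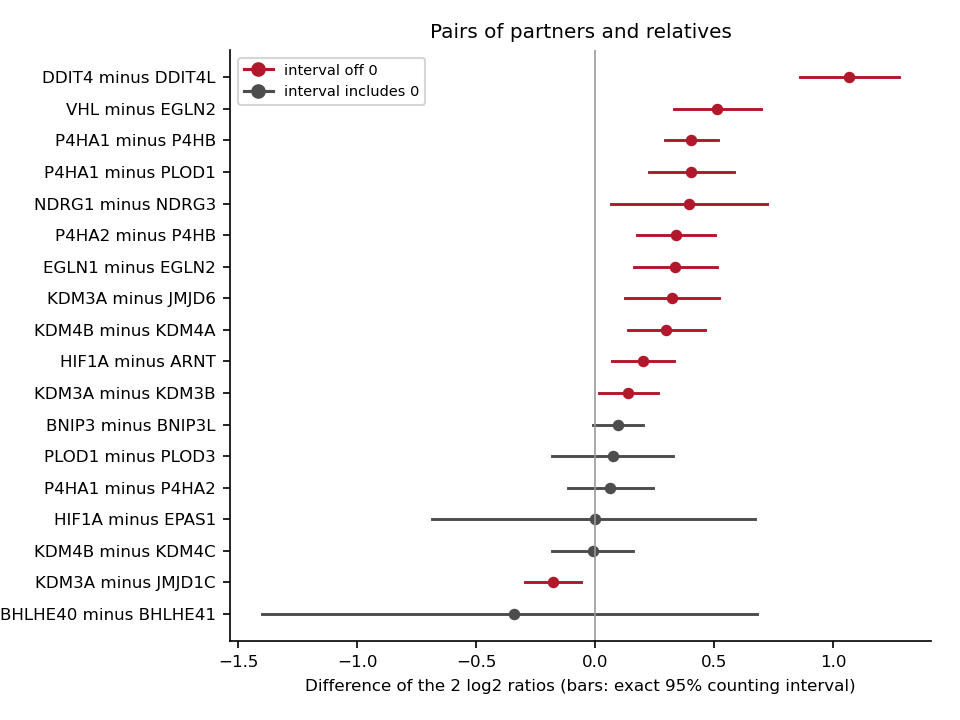
Difference between the log2 ratios of 2 genes for 18 pairs of partners or relatives (first gene minus second), with exact 95% intervals for counting error. Of the 18 intervals 12 lie off 0 (red) and 6 include 0 (grey); DDIT4 minus DDIT4L is the largest at 1.07.

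The 18 pairs were chosen by family or function with the single ratios already known, so they are a description. Of the 18, 12 had intervals off 0 and 6 included it. With each gene set against features of its own length, 11 of the 18 had intervals off 0. The share among other pairs of features was not computed.

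Gene length moved with the ratio in these libraries. When the 13532 features were put into 20 equal groups by deposited length, the median log2 ratio went from -0.25 in the shortest group (median 640 bases) to 0.23 in the longest (median 9770 bases). Across 13489 features, which are not independent and share both libraries, Spearman's rho between length and log2 ratio was 0.34. The members were somewhat longer than the table, with a median of 3500 bases against 2873. After the median of features of similar length was subtracted, 11 members again had intervals above 0, against 15.8% of all features, and 10 of them were the same genes. ARNT was no longer among them (0.09, -0.02 to 0.20) and DDIT4 was (0.15, 0.09 to 0.22). On this scale EGLN1 (-0.09, -0.17 to -0.02) joined EGLN2 (-0.21, -0.37 to -0.05) below 0, 2 of 25 members against 14.4% of features.

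ADM and BNIP3, which are short, stood further out after centring, at 0.56 (0.43 to 0.69) and 0.31 (0.22 to 0.40). The members' median was 0.15 on the centred scale. Whether length itself sets any of these differences was not tested.

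**Figure D4:**
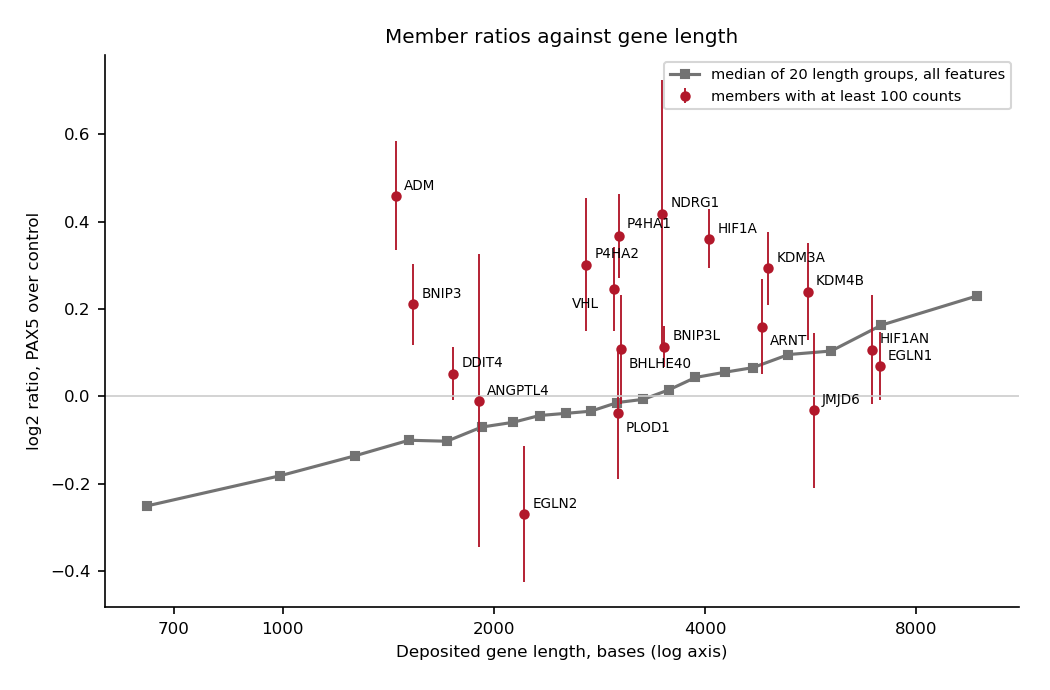
Log2 ratio of the PAX5 library over the control library against deposited gene length (log axis) for members with at least 100 counts, with 95% counting intervals, and the median of each of 20 length groups of all features (grey line). The grey line climbs from -0.25 to 0.23, ADM (0.46) and P4HA1 (0.37) lie above it, and EGLN2 (-0.27) lies below it.

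These intervals hold no variation between cultures, which 1 library per group cannot give. If a coefficient of variation of 0.1 between cultures is assumed, ADM alone keeps an interval above 0 (0.04 to 0.88), where 6.07% of all features do, and no member keeps one below 0, where 3.06% do.

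Other genes of the pathway gave a mixed picture beside the members. Of 21 glycolytic HIF targets, 10 had intervals above 0 and 5 below, beside 18.7% and 16.8% of all features. None passed the 2-fold rule, and the median log2 ratio was 0.09. PFKL, the liver-type phosphofructokinase, came closest with 9932 counts against 4563 and a ratio of 2.02-fold (1.95 to 2.10). PFKFB4 (0.33) and PFKFB3 (0.27), which make and break the activator of phosphofructokinase, had smaller log2 ratios. Of the other HIF targets, 23 reached 10 counts, and 10 of these intervals lay above 0 and 2 below, with a median of 0.12. MXI1, a MYC antagonist, had a log2 ratio of 0.35, the TGF-beta coreceptor ENG of 0.33 and the demethylase KDM5B of 0.31. The members' median of 0.21 was above those of both lists, although the 3 lists overlapped in range. Among genes with at least 1000 counts, the medians were 0.16 for the members, 0.14 for the other HIF targets and 0.08 for the glycolytic targets. The shares with intervals above 0 were also close, at 44.0% of the members, 43.5% of the other HIF targets and 47.6% of the glycolytic targets.

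HIF cofactors and turnover genes went both ways, with 7 of 24 intervals above 0, 9 below and a median of -0.05. Of all features, 18.7% lay above 0 and 16.8% below. Among the 21 with at least 1000 counts, 5 lay above 0, against 28.7% of features of that depth, and 8 below, against 25.0%. The coactivators EP300 (0.39) and CREBBP (0.29) were higher, and RBX1, the RING subunit of the VHL ligase, was lower (-0.41, -0.54 to -0.29). EP300 and CREBBP are long and RBX1 is short, and their centred values were 0.16, 0.06 and -0.16. VHL and RBX1, which work in 1 complex, therefore lay on opposite sides of 0.

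The collagen enzyme relatives were set beside P4HA1 and P4HA2. Of the 10 that reached 10 counts, 0 had intervals above 0, against 18.7% of all features, and 3 had them below, against 16.8%. The 3 were LOXL4 (-0.51), the collagen chaperone SERPINH1 (-0.37) and the collagen galactosyltransferase COLGALT1 (-0.17). The median of the 10 was -0.11.

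The JmjC and 2-oxoglutarate dioxygenase relatives of KDM3A and KDM4B had 17 of 25 intervals above 0, against 18.7% of all features. Below 0 lay 2 of the 25, against 16.8%, and the median was 0.25. RIOX2 alone passed the 2-fold rule, with 15 counts against 1, a ratio of 13.9-fold (2.15 to 587). KDM7A had 683 counts against 287, a ratio of 2.21-fold (1.92 to 2.55), and KDM2B (0.53) and JMJD1C (0.47) followed. These genes are long, with a median of 6383 bases. After centring on length, 9 of the 25 had intervals above 0, against 15.8% of all features, and the median was 0.09. KDM4C, KDM5B and KDM5C stand in this list and among the other HIF targets.

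**Figure D5:**
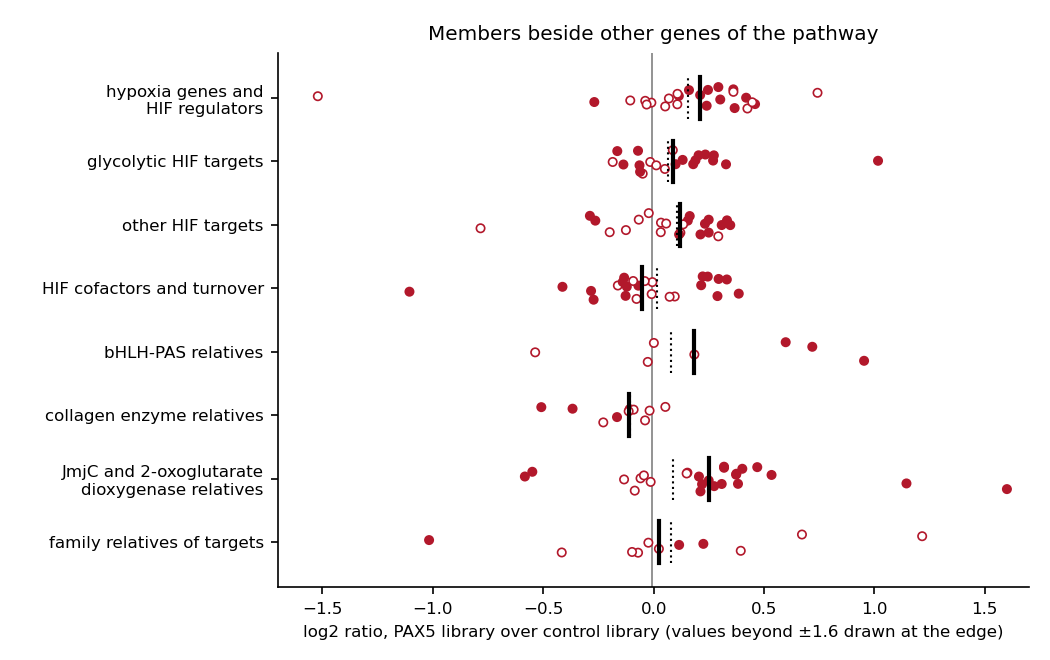
Log2 ratios of the members and of 7 lists of related genes with at least 10 counts (1 point a gene; filled where the 95% counting interval excludes 0), with the list median (solid bar) and its median after centring on length (dotted bar). The grey vertical line is the median of all features (-0.01); the members' median is 0.21, and the collagen enzyme relatives lie mostly below 0 with a median of -0.11.

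Reads of overlapping genes cannot be assigned with certainty, because the strand setting used in counting was not given in the sources used here. In RefSeq, 16 of the 32 members overlap another gene and 7 overlap one that is also in the table. JMJD6 overlaps METTL23 (440 counts against 415), ANKRD37 overlaps UFSP2 (597 against 599) and BNIP3 overlaps PPP2R2D (472 against 424), none of which had an interval off 0. LOX overlaps SRFBP1, which had 299 counts against 206 and a log2 ratio of 0.43 (0.17 to 0.69).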

How the data were processed

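The data are RNA-seq of 1 PAX5 and 1 control culture of REH cells sorted for GFP. The deposited values are raw read counts per Entrez gene with a gene length; the authors used featureCounts and the build hg19 (also called GRCh37), by the submitters' processing notes. The aligner, version, strand setting and treatment of multi-mapping reads were not given in the sources used here. Symbols and promoters came from RefSeq on GRCh38.p14, matched by Entrez number for 23696 of 25702 features. Features without a symbol held 0.519% of PAX5 and 0.590% of control counts, which the library totals include.

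TMM scaling was done with edgeR 4.0.16 (R 4.3.3) on features with at least 10 counts. Since 1 library per group leaves no residual degrees of freedom, exact Clopper-Pearson 95% intervals (scipy 1.17.1), conditional on the summed count, took the place of a test. Pair differences used the exact conditional odds ratio. Intervals and the floor of 3 counts cover counting error only, since PCR copies are not independent molecules. The calculation was tested on simulated counts. All 32 members are named; of each related list, genes past the rule and up to 3 others with the bound farthest from 0 are named, and others where set beside a member. The members and lists were chosen with earlier results of these data known. Alternatives were scaling by total counts, DESeq2 1.42.0 or upper-quartile factors, count minimums, the fold of the rule, centring in 20 length groups and an assumed variation between cultures.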

Additional observations from a re-analysis of the deposited data

How the results depend on the processing

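No member passed the 2-fold rule under any of the 3 other scalings, with no count minimum or one of 50, after centring on length, with the assumed variation or with a bound at 1.5-fold; among members with at least 10 counts, 1, STC2 with 3 against 8 counts, had a point ratio beyond 2-fold. RORA (4 against 1) and HIF3A (1 against 3) were under that minimum and also had point ratios beyond 2-fold. The number of members with intervals above 0 was 11 under each scaling except DESeq2 size factors, where it was 13, and fell to 1 with an assumed coefficient of variation of 0.1. The number below 0 was 1, but 2 after centring on length and 0 with the assumed variation. The members' median log2 ratio of 0.21 ranged from 0.14 (mean in place of the median) to 0.24 (no count minimum). Other scalings moved the median of all features from -0.01 to between -0.04 and 0.01. Of 55 single genes, 14 moved outside their own interval on centring by length, and 4 members then lay on the other side of 0: EGLN1 (-0.09), HIF1AN (-0.06), ANGPTL4 (0.06) and ANKRD37 (0.08). No paired analysis was possible because each group has 1 library. ARNT2, EGLN3, CA9, CA12 and PLOD2 had at most 1 count in sum, so nothing can be read of their ratios at this depth.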

Other observations

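Relatives of the HIF subunits outside the hypoxia pathway included genes with larger ratios than any well-counted member. Among bHLH-PAS proteins, the dimer family to which HIF1A and ARNT belong, and their coactivators, 7 genes reached 10 counts. Of these, 3 had intervals above 0, against 18.7% of all features, and none below, against 16.8%. The coactivator NCOA3 had 1877 counts with PAX5 against 1060 without, a log2 ratio of 0.72 (0.61 to 0.83). AHRR, the repressor of the aryl hydrocarbon receptor, had 417 counts against 256 and a log2 ratio of 0.60 (0.37 to 0.83). SIM2 had 50 counts against 24 and a log2 ratio of 0.95 (0.22 to 1.72). Centred on length, NCOA3 stood at 0.56, AHRR at 0.49 and SIM2 at 0.86. AHR itself had 2 counts against 0, and none of the 7 passed the 2-fold rule. Among relatives of the targets, 11 genes reached 10 counts, with a median of 0.02. Intervals lay above 0 for 2 of the 11, against 18.7% of all features, and below 0 for 1, DDIT4L, against 16.8%. The 2 with intervals above 0 were ANGPTL2 (log2 ratio 0.23, 0.08 to 0.37) and BNIP2 (0.12, 0.01 to 0.22).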
